A study of Mus musculus with 6 samples.

Results

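Clustered protocadherins are cell-surface proteins of the cadherin superfamily that are encoded side by side in 3 gene clusters, alpha, beta and gamma, on mouse chromosome 18. The members were chosen by symbol and position. All protein-coding genes of chromosome 18 in the GENCODE annotation (release M21, GRCm38) named Pcdh followed by a, ac, b, ga, gb or gc and a number were taken, which gave 57 of 21938 protein-coding genes. The alpha cluster held 14 of them, the beta cluster 22 and the gamma cluster 21. GENCODE gives the symbol Pcdha11 to 2 genes, and the one that starts at 37005203 (ENSMUSG00000007440.10) is called Pcdha10 here, as RefSeq names it. Pcdhgb8 is annotated as a polymorphic pseudogene and was not counted.

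Acetylation of histone H3 at lysine 27 (H3K27ac), a mark of active promoters and enhancers, was measured by ChIP-seq in mouse embryonic stem cells (mESCs) to ask how it depends on ongoing transcription. The cells were of the line E14Tg2A with the alleles Rosa26-Cre and Oct4-IRES-Puro and grew in N2B27 medium with LIF, PD0325901 and CT-99021. Control cells received DMSO, and the other cells received for 120 min either 100 nM NVP-2, an inhibitor of the kinase CDK9, or actinomycin D, which blocks transcription by binding DNA (800 nM in the sample labels). Each of the 3 conditions had 2 replicates. The values below rest on a single deposited list, the 22973 control peaks, which pools both replicates and gives a chromosome, a start and an end in mm10 for each peak. It holds no height, score or read count, so replicates could not be compared, no value has a replicate error, and the reads behind a peak cannot be read from it. The sequencing depths that the study lists for the control replicates are unequal, so the pooled list need not weight them alike. The treated cells were not analysed here.

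Each alpha or gamma gene begins with its own promoter and a long variable first exon, which encodes the extracellular cadherin repeats, the membrane span and part of the tail. This exon is spliced to 3 constant exons at the end of the cluster, which all genes of the cluster share. Beta genes have no constant exons. Neurons transcribe a few of these variable promoters in each cell, apparently at random, and the resulting surface code lets a neuron tell its own branches from those of other cells. The C types (Pcdhac1, Pcdhac2, Pcdhgc3, Pcdhgc4 and Pcdhgc5) are instead used by most neurons. The choice among promoters depends on CTCF, cohesin, DNA methylation and distant enhancers.

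The labelled cell type was checked on markers, beside a background of 51.9% of all protein-coding genes with a peak at a TSS. All 8 stem cell markers examined (Pou5f1, Nanog, Sox2, Zfp42, Esrrb, Tfcp2l1, Tdgf1 and Dppa5a) had a peak at the TSS of at least 1 isoform, and so did 2 of 8 neuron markers, Tubb3 and Stmn2 (25%, 95% Wilson interval 7.15 to 59.1%, which includes the background). Esrrb had it at other isoforms only, its longest isoform starting 33.7 kb from a peak.

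A gene was counted as marked where a control peak overlapped the window of ±1 kb around the TSS of any of its isoforms by at least 1 bp. Of the 57 clustered protocadherins, 5 were marked, or 8.77% (95% Wilson interval 3.81 to 18.9%), against a background of 51.9% of all protein-coding genes. Among the other 456 protein-coding genes of chromosome 18 the share was 61.8% (57.3 to 66.2%). All marked members lay in the gamma cluster. They were 5 of 21 gamma genes, or 23.8% (10.6 to 45.1%). When the TSS itself had to lie inside a peak, 3 members (5.26%), or 14.3% of gamma genes, were marked, beside 49.1% of all protein-coding genes. No peak lay within 1 kb of a TSS of the 14 alpha or the 22 beta genes. With 3 counts as the upper limit for a count of 0, the shares could be as high as 21.4% in alpha and 13.6% in beta. These intervals and limits treat genes as independent counts and include no other error. Neighbouring members do share their surroundings, and the difference between the clusters was not tested.

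The marked members were Pcdhga1, Pcdhga2, Pcdhga8, Pcdhga12 and Pcdhgc3. By type they were 4 of 12 genes of the A type (Wilson interval 13.8 to 60.9%), none of 6 of the B type (Pcdhgb1, Pcdhgb2, Pcdhgb4, Pcdhgb5, Pcdhgb6 and Pcdhgb7), which allows up to 50%, and 1 of 3 of the C type (6.15 to 79.2%). The background was 51.9% of all protein-coding genes. The intervals of the A and C types include it, and the limit of the B type lies just below it. These ranges overlap, and the difference between the types was not tested. The marked members were not a continuous run. Pcdhga1 and Pcdhga2 are the first genes of the cluster, the next 8 members had no peak, and Pcdhga8 and Pcdhga12 each followed a stretch of unmarked neighbours.

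The peak at Pcdhga1 (ENSMUSG00000103144.1, plus strand, TSS at 37661793) ran from 37661644 to 37662858 on chromosome 18. It reached from position -149 to 1065 relative to the TSS (in bp), so that 87.7% of its 1215 bp lay on the first exon. The peak at Pcdhga8 (ENSMUSG00000103897.1, TSS at 37725706) had the same layout, from -55 to 950. It spanned 1006 bp, from 37725651 to 37726656, and 94.5% of it was first exon. In both genes the mark thus lay over the start and the coding part next to it, and reached little upstream.

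At Pcdhga2 (ENSMUSG00000103332.1, TSS at 37668953) the peak was the narrowest of the locus. It measured 515 bp, from 37668956 to 37669470, began 3 bp after the TSS and lay wholly on the first exon. Of all autosomal peaks, 4.57% were narrower. Pcdhgc3 (ENSMUSG00000102918.1, TSS at 37806410) was the only marked C type, and its peak reached further upstream than that of any other marked member. It ran from -582 to 881 relative to the TSS, from 37805828 to 37807291, and 60.2% of its 1464 bp was first exon of this isoform.

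Pcdhga12 (ENSMUSG00000102428.1), the last A type gene, had a peak that ended further from its TSS (37765580) than those of the other 4. The peak began 550 bp downstream at 37766130 and ended at 37772943, beyond the first exon of 2961 bp. As at Pcdhga2, the TSS itself was not inside it. Of its 6814 bp, 35.4% lay on that exon. This peak was wider than 86.9% of autosomal peaks and was the widest at any member's TSS. ChIP-seq does not resolve the strand. The peaks at Pcdhga1, Pcdhga8 and Pcdhgc3 also lay within 1 kb of starts of the antisense genes Gm37118, Gm37165 and BC037039. That at Pcdhga12 lay within 1 kb of a start of the non-coding gene Gm26672. Marks of these genes and of the members cannot be told apart.

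**Figure D1:**
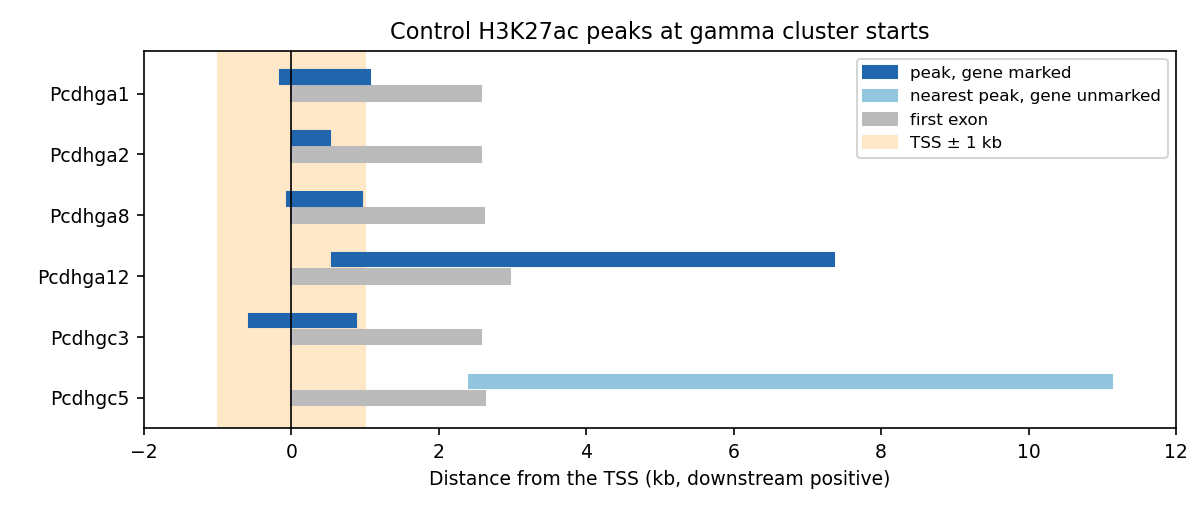
Control H3K27ac peaks (dark blue) and first exons (grey) of the 5 marked gamma genes, and the nearest peak (light blue) of the unmarked Pcdhgc5, drawn to scale by distance from the TSS in kb, with the ±1 kb window shaded. The peaks at Pcdhga1, Pcdhga2, Pcdhga8 and Pcdhgc3 end 517 to 1065 bp after the TSS, whereas that at Pcdhga12 begins 550 bp after it and that near Pcdhgc5 begins 2403 bp after it.

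The 16 unmarked gamma genes lay from 2.40 to 24.9 kb from the nearest peak, with a median of 10.8 kb. Nearest was Pcdhgc5, whose neighbouring peak began on the last 219 bp of its first exon, and farthest was Pcdhga5, in the middle of the run of unmarked genes between Pcdhga2 and Pcdhga8. Pcdhgc4 lay 6.84 kb from a peak. Pcdhga3 and Pcdhgb5, the genes just after Pcdhga2 and Pcdhga8, lay 4.84 and 4.35 kb from the peaks of these neighbours. The pseudogene Pcdhgb8 was unmarked as well, 4.33 kb from a peak.

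The alpha cluster runs from 36930184 to 37187661, and its starts lay far from any peak. The distances ranged from 21.5 kb at Pcdhac2 to 179 kb at Pcdha7, with a median of 156 kb over the 14 genes. Pcdha1, the first gene, lay 135 kb from the nearest peak, that of Zmat2 upstream of the cluster. The C types were closest, with Pcdhac1 at 75 kb and Pcdhac2 at 21.5 kb from the only peak inside the cluster. All 12 genes from Pcdha1 to Pcdha12 lay more than 100 kb from a peak.

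The beta cluster, from 37264938 to 37524479, held no peak at all. Its starts lay 24.3 kb (Pcdhb22, the last gene) to 187 kb (Pcdhb8) from the nearest peak, with a median of 103 kb, and Pcdhb1, the first gene, lay 98.8 kb away. Of the 22 beta genes, 11 were more than 100 kb from a peak. Over all 57 members the count was 23, or 40.4%, against a background of 19.6% of all protein-coding genes. The median distance was 64.4 kb for the members and 2.28 kb for all protein-coding genes.

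**Figure D2:**
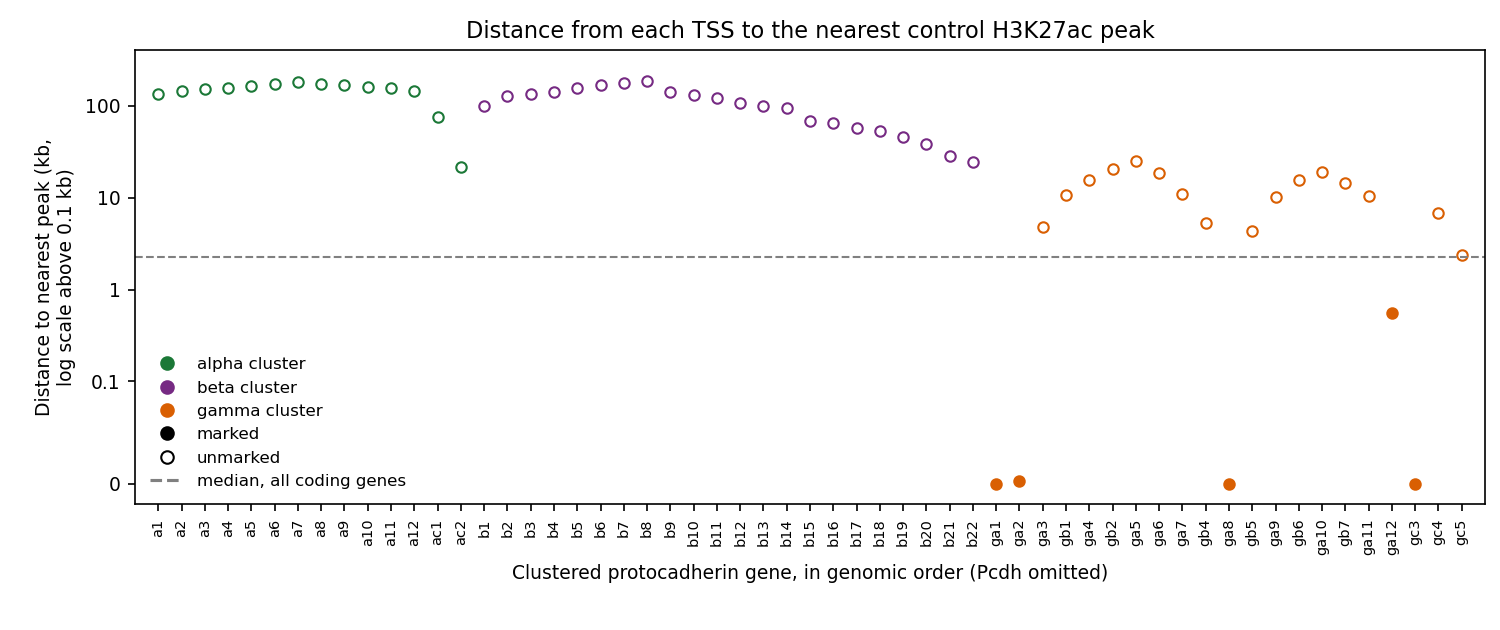
Distance in kb (log scale above 0.1 kb) from the TSS of the longest isoform of each of the 57 members to the nearest control H3K27ac peak, in genomic order, filled where the gene is marked. The alpha and beta genes lie at 21.5 kb or more, and the gamma genes at 24.9 kb or less, on both sides of the median of 2.28 kb for all protein-coding genes (dashed).

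Across the clusters and 200 kb on either side, from 36730184 to 38041873, the list held 25 peaks, or 19.1 per Mb, which covered 5.15% of the length. Chromosome 18 as a whole had 7.84 peaks per Mb and a covered share of 3.10%, and the autosomes 9.14 per Mb and 3.45%. The locus was thus not poor in peaks, but these were uneven. The alpha cluster had 1 peak that covered 0.440% of its 257 kb, whereas the gamma cluster had 9 peaks that covered 15.9% of its 180 kb. The space between alpha and beta, 77.3 kb long, had none, and the space between beta and gamma had 5 peaks in 137 kb. A peak at the edge of 2 segments, of which there were 2, was counted in both.

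**Figure D3:**
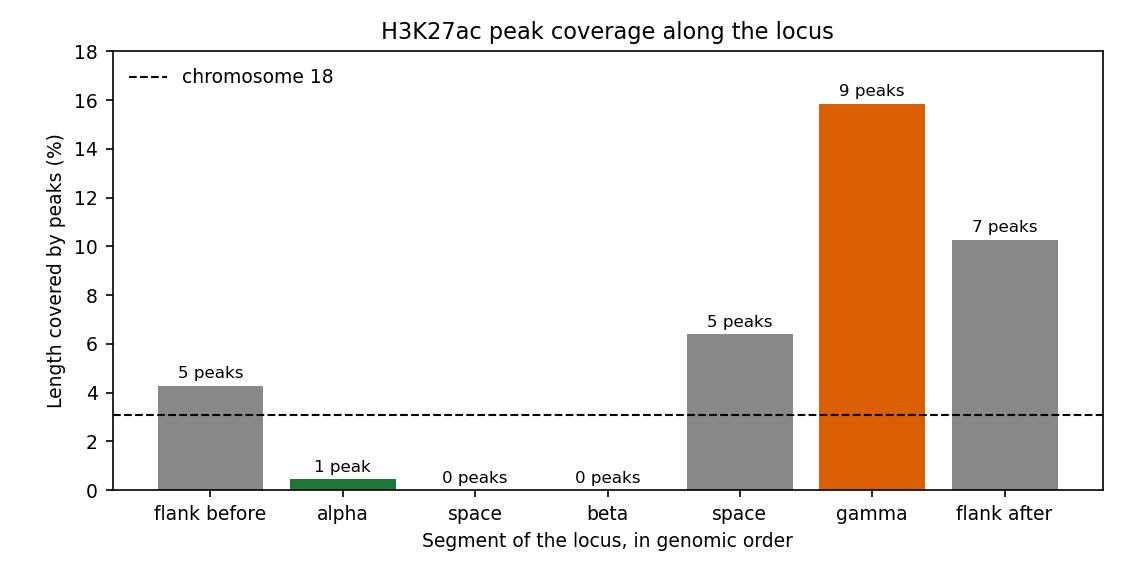
Share of the length covered by control H3K27ac peaks, in percent, in the flanks of 200 kb, the 3 clusters and the spaces between them, with the number of peaks above each bar and the value of chromosome 18 (3.10%) dashed. Coverage is 0.440% in the alpha cluster, 0 in the beta cluster and 15.9% in the gamma cluster.

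Between the peak at Zmat2 and that inside the alpha cluster there was no peak for 370 kb, from 36794823 to 37165041, a stretch that held the starts of all 14 alpha genes. The next stretch without a peak measured 376 kb, from 37166176 to 37542199, and held the starts of all 22 beta genes. Of 22499 gaps between neighbouring peaks on the autosomes, 5.86% were longer than the first and 5.75% longer than the second, and the median gap was 26.3 kb. The first held 17 protein-coding starts in all, the others being Gm42416, Gm37013 and Gm37388. Of 1657 autosomal gaps of at least 300 kb, 71 (4.28%) held 14 or more protein-coding starts, these 2 among them, and the median was 1. The limit of 14 is the number of alpha genes and was set with these gaps known, and the members were chosen as neighbouring genes, so this share describes the gaps and supports nothing further. The largest number in a single gap was 109. Inside the gamma cluster the longest gap, 56.2 kb between Pcdhga2 and Pcdhga8, held the starts of 8 members.

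**Figure D4:**
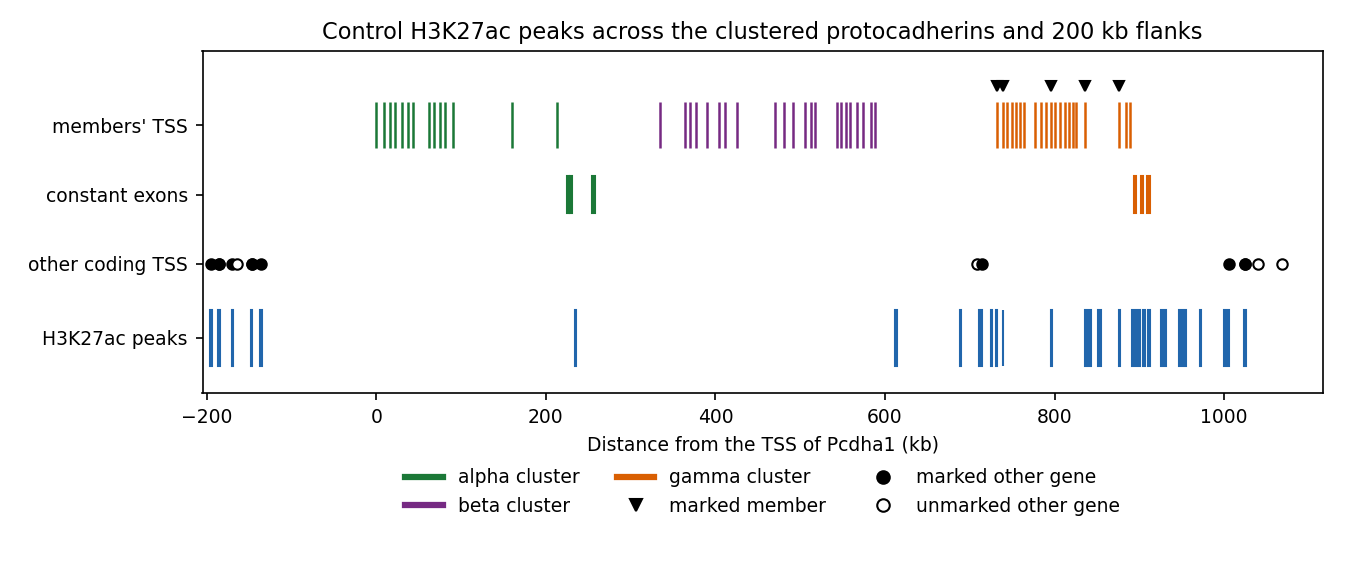
Map of the locus by distance in kb from the TSS of Pcdha1, with the TSS of each member coloured by cluster, triangles over the 5 marked members, the constant exons of the alpha and gamma clusters, the TSS of other protein-coding genes (filled where marked; Gm42416, Gm37013 and Gm37388 are not drawn) and the 25 control peaks. No peak lies under the alpha or beta starts, and peaks cluster from the end of the beta cluster onwards.

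The only alpha peak, from 37165042 to 37166175, lay in the intron between the second and the last constant exon, 4.34 kb after the former and 18.8 kb before the latter. It measured 1134 bp and overlapped no exon. None of the 3 alpha constant exons was touched by a peak. Since the intron belongs to all 14 alpha genes, the peak cannot be assigned to any of them. A peak of 2115 bp from 37542200 to 37544314 lay 17.7 kb after the end of Pcdhb22 and overlapped no exon. It was the nearest peak of the beta genes from Pcdhb8 to Pcdhb22.

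The widest peak of the locus lay at the end of the gamma cluster. After the start of Pcdhgc5 there were 3 peaks, which made up 49.2% of the covered length of the cluster, more than the 38.0% of the 5 peaks at member starts. The first, from 37821916 to 37830643, spanned 8728 bp, was wider than 91.1% of autosomal peaks and covered the whole of the first constant exon. It also overlapped the first exon of Pcdhgc5 and lay within 1 kb of starts of the non-coding genes Gm29994 and Gm38182. The next, of 3402 bp from 37834092 to 37837493, lay in the intron before the last constant exon and touched no exon. The last, of 2756 bp from 37839952 to 37842707, covered 1922 of the 1971 bp of the last constant exon and ran past the end of the cluster. The remaining gamma peak, of 3642 bp from 37781960 to 37785601, lay 16.4 kb after the TSS of Pcdhga12 in the space of 40.8 kb before that of Pcdhgc3, and overlapped no exon. These introns and exons are shared by upstream genes of the cluster, so the 4 peaks cannot be assigned to a particular member.

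In the flanks, 10 of 13 protein-coding genes were marked, beside 51.9% of all protein-coding genes and 61.8% of the others on chromosome 18. The difference from these shares was not tested. Before the alpha cluster these were Tmco6, Ndufa2, Ik, Wdr55, Zmat2 and the histidyl-tRNA synthetase genes Hars and Hars2, with peaks of 1556 to 1826 bp, while Dnd1, a germ cell gene, was unmarked. Past the gamma cluster Diaph1, a formin that assembles actin filaments, the histone deacetylase gene Hdac3 and Rell2 were marked, and Fchsd1 and Arap3 were not. Between the beta and gamma clusters Taf7, which encodes a TFIID subunit, had a peak of 3473 bp, whereas Slc25a2, a mitochondrial ornithine carrier next to it, was unmarked at 2.60 kb. The lincRNA genes 4930517L18Rik and 3222401L13Rik there were marked. The latter ends just before the start of Pcdhga1, and its last part lay under the peak of that gene. The protein-coding genes Gm42416, Gm37013 and Gm37388, which start in the alpha cluster and run into the constant part of the gamma cluster, were unmarked, 158 to 181 kb from a peak. The body of Diaph1 on the gamma side held 4 more peaks before that at its main start, of 1049 to 5265 bp, the widest of them within 1 kb of the start of another isoform.

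Promoters rich in CpG are often marked in any cell type, so the sequence around the starts was measured. The CpG ratio, the number of CpG observed over that expected from the C and G content of the ±1 kb window, had a median of 0.48 over the members and 0.48 over all protein-coding genes. The clusters differed in it. All 14 alpha windows lay between 0.48 and 0.75 (0.520 to 0.702), all 22 beta windows below 0.48 (0.138 to 0.475), and the gamma windows ranged from 0.251 to 0.835. In the class from 0.48 to 0.75, the background of marked protein-coding genes was 76.9%, against 0 of 14 alpha genes and 2 of 13 gamma genes. Below 0.48 the background was 23.5%, against 0 of 22 beta genes and 2 of 6 gamma genes. Above 0.75 it was 89.3%, against 1 of 2 members, both of the gamma cluster: Pcdhgc3 (0.835) was marked, and Pcdhga11 (0.767) was not.

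Marked and unmarked gamma genes did not stand apart in this measure. Pcdhga1, Pcdhga12, Pcdhga2, Pcdhga8 and Pcdhgc3 had ratios of 0.451, 0.457, 0.513, 0.610 and 0.835, and the 16 unmarked gamma genes had ratios from 0.251 to 0.767 with a median of 0.511. The median GC content was 42.0% in alpha, 42.1% in beta and 45.5% in gamma windows, below the 51.4% of all protein-coding genes. The C types were richer in GC than the other members, from 50.2 to 54.8% against 38.8 to 47.2%.

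**Figure D5:**
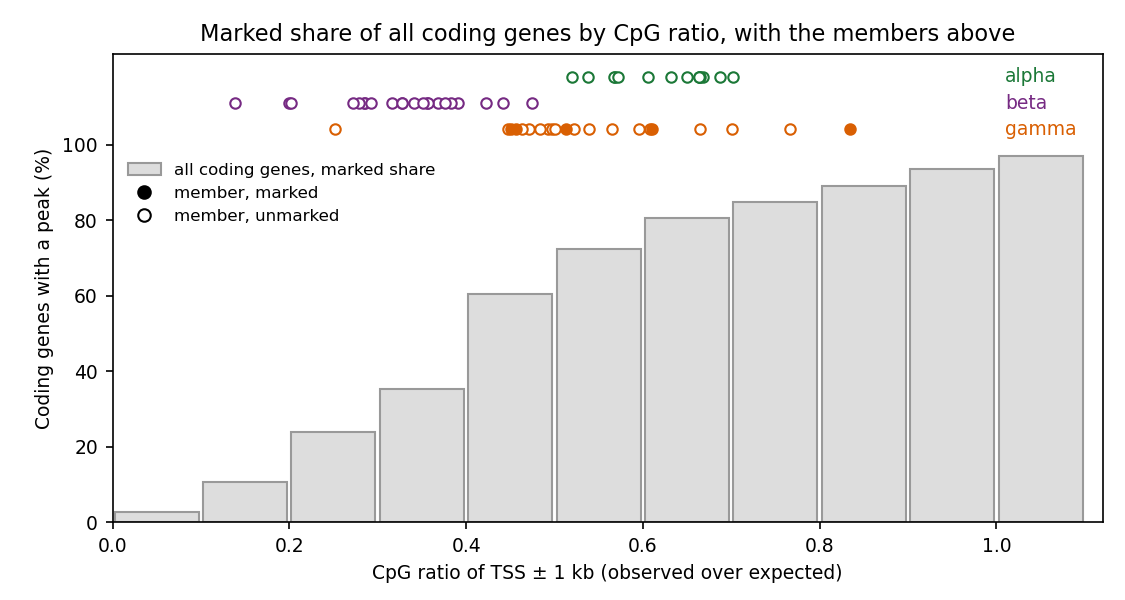
Share of all protein-coding genes with a control peak within 1 kb of a TSS, in percent, by CpG ratio of the ±1 kb window in steps of 0.1 (bars), with the ratio of each member above the bars as a point, filled where marked. The share rises from 2.62% in the lowest step to over 80% from 0.6 on, and the alpha genes, all unmarked, lie at 0.520 to 0.702, where most protein-coding genes are marked.

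Most, but not all, promoters of clustered protocadherins share a conserved element with the core CGCT, to which CTCF binds. The letters CGCT occurred on either strand in the 250 bases before to 50 after the TSS of 55 of 57 members, or 96.5%, and in 68.3% of all protein-coding genes. They were missing at Pcdhb22 and at Pcdhga12, which was marked. Pcdhgc3 had the most, with 9 occurrences, and Pcdhga5, unmarked, had 6. In the class with CpG ratios from 0.48 to 0.75, 91.6% of all protein-coding genes and all 27 members held these letters. Below 0.48 they occurred in 43.5% of protein-coding genes and in 26 of 28 members (92.9%), 21 of the 22 beta genes included. TATAAA occurred in 10 members (17.5%), all unmarked, and in 12.3% of all protein-coding genes. Such matches are descriptions and show no binding. A match of the letters CGCT need not be the conserved element, so these counts do not tell which members carry it.

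The variable exons resemble each other, and the authors removed reads with a mapping quality below 10. To describe how alike the windows are, error-free reads of 130 bases were cut from the reference every 50 bases in each ±1 kb window and placed on the mouse genome with minimap2, not with the authors' aligner or joined genome. Of the reads from members, 99.3% returned to their position with a mapping quality of at least 10, against 95.5% for all protein-coding genes. The share was 97.7% in the alpha, 99.9% in the beta and 99.7% in the gamma cluster. The lowest value of a member was 92.1%, at Pcdha10 and Pcdha11, and 49 members reached 100%. The part of read placement, of the height limits and of the filter on open chromatin in the unmarked starts was not tested.

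Protocadherins outside the clusters were also largely unmarked. Of 12 such genes, 2 were marked, or 16.7% (4.70 to 44.8%): Pcdh1, which lies beyond the gamma cluster on chromosome 18, with a peak of 534 bp, and Pcdh19 on the X chromosome, with a peak of 3279 bp. Pcdh12, close to Pcdh1, was unmarked at 12.1 kb. Of 32 further cadherins, classical and desmosomal ones among them, 7 were marked, or 21.9% (11.0 to 38.8%). They included Cdh1, the E-cadherin of stem cells and epithelia, with a peak of 44401 bp, and the desmosomal genes Dsc2 and Dsg2. Cdh2, the N-cadherin, was unmarked. These shares lie, as that of the clustered genes, below the 51.9% of all protein-coding genes. The median CpG ratio was 0.658 over the 12 protocadherins and 0.359 over the 32 cadherins. In the CpG classes of these medians the backgrounds were 76.9% (0.48 to 0.75) and 23.5% (below 0.48). The share of the cadherins, 21.9%, was near the latter. The intervals of both shares overlap that of the members, and the difference from the members was not tested.

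Genes whose products act on protocadherin promoters or proteins were examined too, beside the background of 51.9%. In the CpG classes below 0.48, from 0.48 to 0.75 and above, the background was 23.5%, 76.9% and 89.3%. All 8 genes of CTCF and cohesin (Ctcf, Rad21, Smc1a, Smc3, Stag1, Stag2, Nipbl and Wapl, with a median CpG ratio of 0.870) were marked. So were Dnmt1, Dnmt3a, Dnmt3b, Smchd1, Setdb1, Wiz, Ehmt1, Ehmt2 and Rest, which act in DNA methylation and silencing. Over the full list of methylation and silencing genes the median CpG ratio was 0.671 and the lowest 0.222. Ctcf had a peak of 5549 bp at its start, and Dnmt3b, which methylates variable promoters, had a peak of 3480 bp. Smchd1, which silences the clusters and genes of the inactive X chromosome, had a peak of 1516 bp. Dnmt1 was marked at the TSS of another isoform only, its longest isoform starting 6.14 kb from a peak. Of 8 genes whose proteins act with protocadherin tails (median CpG ratio 0.782), 7 were marked: the focal adhesion kinase gene Ptk2 and Wasf1, Cyfip1, Nckap1, Abi1, Abi2 and Brk1 of the WAVE actin regulator. Ptk2b, the kinase Pyk2, was unmarked at 15.2 kb. The differences from the background were not tested.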

How the data were processed

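H3K27ac ChIP-seq was made from 2 replicates per condition, grouped by the treatment in the sample labels. The authors deposited a list of peak positions in bp (mm10) for control cells, pooled over both replicates. They trimmed reads with Cutadapt, aligned them with bwa meme to mm10 joined with a human genome for the spiked-in chromatin, discarded duplicates and low mapping qualities (the submitters' processing notes name Picard 2.9.1 and SAMtools 1.4), called peaks with LanceOtron, merged peaks within 2 kb and dropped low peaks and those away from ATAC-seq summits. A promoter without a listed peak may therefore have had weak signal.

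Starts were those of all isoforms in GENCODE M21. Shares have 95% Wilson intervals and limits of 3 counts. No test was run. Every marked member is named, and of the unmarked the first and last of each cluster, the C types and the extremes of distance. Others (Pcdhga3, Pcdhgb5, the B types, Pcdha10, Pcdhga5 and Pcdhga11 for their sequence values) were chosen after their values were seen. Of the list of DNA methylation and silencing genes, 1 is not reported here. Members and lists were chosen with earlier results of these data known. Alternatives were other windows, isoforms, peaks, overlaps, flanks and read lengths, and RefSeq starts. Reads were placed with minimap2 (2.31, preset sr). The overlap functions were tested on simulated peaks. The tools were scipy 1.17.1, pandas 2.3.3, numpy 2.4.6 and, for figures, matplotlib 3.10.9, under Python 3.11.15.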

Additional observations from a re-analysis of the deposited data

How the results depend on the processing

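The counts of 0 of 14 alpha and 0 of 22 beta genes were the same with windows of ±500 bp and ±2 kb, the TSS itself inside a peak, the longest or only protein-coding isoforms, peaks at least 1 kb wide, overlaps of at least 500 bp and RefSeq starts, the last chosen after seeing the data. The 5 marked gamma genes became 3 with the TSS inside a peak (without Pcdhga2 and Pcdhga12) and 4 with peaks at least 1 kb wide (without Pcdhga2), and were 5 otherwise. The share of all protein-coding genes, 51.9%, moved beyond its narrow interval to 52.7% (±2 kb), 49.1% (TSS inside a peak), 48.7% (longest isoform), 51.0% (protein-coding isoforms), 46.6% (peaks at least 1 kb wide) and 50.5% (overlap of at least 500 bp); it was 51.5% with ±500 bp. The cause was not tested beyond what each choice leaves out by construction. Peak density of the locus ranged from 15.4 to 22.5 per Mb and its coverage from 4.22 to 6.42% over 3 other flanks and wide peaks. The median CpG ratio of the members, 0.48, was 0.564 with windows of ±500 bp. It was 0.521 over the 250 bases before to 50 after the TSS. The CpG classes were formed with ±1 kb only. With reads of 75 bases, 97.0% of those from members returned, outside the interval around 99.3%. The cause was not tested. No paired analysis was possible with the peak list used, because it pools both control replicates. For the same reason no replicate could be left out.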

Other observations

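The CpG ratio within the peak varied over the locus. It was 0.500 to 0.834 in the 5 peaks at member starts. It was 0.13 in the alpha intron, 0.246 after Pcdhb22, 0.172 before Pcdhgc3, 0.193 in the last gamma intron and 0.330 at the last gamma constant exon, none of which holds an annotated start. The peak over the first gamma constant exon, within 1 kb of starts of Gm29994 and Gm38182, had 0.232. That within 1 kb of the start of another Diaph1 isoform had 0.193, so that peaks at or near starts were not always higher. The 3 other peaks in the body of Diaph1 had 0.193 to 0.255.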
